A study of Homo sapiens with 60 samples.

Results

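The genes described here are 10 targets and regulators of the transcriptional coactivator YAP: CCN1, CCN2, ANKRD1, AMOTL2, AMOTL1, THBS1, AXL, LATS2, F3 and VGLL1. They are 10 of the 19775 genes measured and carry 26 of the 54675 probe sets. They were chosen by name with earlier results of these same arrays known, above all the HB4a responses and the levels of C5.2 beside HB4a. So the HB4a treatments against vehicle and C5.2 against HB4a in vehicle are given as a description, with no p. RNA was measured with 60 Affymetrix expression arrays in 3 human breast cell lines. HB4a is a line of normal breast epithelium, C5.2 was made from HB4a by transfection of a full-length HER-2 cDNA, and SKBR3 comes from a mammary adenocarcinoma with high HER-2. Whether C5.2 is 1 clone, and which promoter drives its cDNA, is not given in the sources used here. All cells grew in RPMI with serum. The HB4a and C5.2 medium also held insulin and hydrocortisone, so medium and line cannot be told apart for SKBR3. Each line was treated with vehicle (DMSO), with 30 nM doxorubicin, with 20 nM rapamycin or with the pair, and each of the 12 groups has 5 arrays. The arrays are numbered 1, 2, 3, 4 and 6 in every group, after the experiments, and values below follow that order. How long the cells were treated is not given in the sources used here.
YAP and its relative TAZ carry no DNA-binding domain and act through the TEAD transcription factors. The Hippo kinases, MST and LATS, phosphorylate YAP and TAZ and hold them in the cytoplasm, and the pathway answers to cell density, shape and tension. CCN1 and CCN2 encode secreted matricellular proteins that bind integrins, and with ANKRD1, an ankyrin-repeat cofactor, they are standard readouts of YAP. AMOTL2 and AMOTL1, of the angiomotin family, bind YAP and restrain it, and LATS2 is a kinase of the pathway, so these genes form feedback arms. THBS1 encodes the matrix glycoprotein thrombospondin, AXL the receptor kinase for GAS6, and F3 tissue factor, which starts coagulation. VGLL1 encodes a cofactor that binds TEAD at the surface used by YAP. Rapamycin blocks mTORC1, a growth kinase complex, and doxorubicin poisons topoisomerase II and so breaks DNA.
RefSeq promoters of build GRCh38.p14, the 250 bases before an annotated start, were at hand for 9 of the 10 genes, 11 starts in all, with none for CCN1. They were searched on both strands for the TEAD motif GGAATG, the AP-1 motif TGANTCA and the CArG box of serum response factor. The TEAD motif occurred in 11.9% of all 35116 promoters of this length, the AP-1 motif in 6.57% and the CArG box in 1.16%. CCN2 held 3 TEAD matches, ANKRD1 held 2 with 1 AP-1 match, and THBS1, VGLL1, AMOTL2 and AXL held 1 TEAD match each, the last 2 at 1 of their 2 starts. F3 held 2 AP-1 matches and no TEAD match. AMOTL1 and LATS2 held none of these letters in the window, and no member held a CArG box. Shown here, 5′ to 3′ with matches in capitals, are the starts of the targets with most matches and of THBS1 and F3, whose treatment responses differ from those of CCN2.
CCN2 (chr6:131951373-131951622, minus strand): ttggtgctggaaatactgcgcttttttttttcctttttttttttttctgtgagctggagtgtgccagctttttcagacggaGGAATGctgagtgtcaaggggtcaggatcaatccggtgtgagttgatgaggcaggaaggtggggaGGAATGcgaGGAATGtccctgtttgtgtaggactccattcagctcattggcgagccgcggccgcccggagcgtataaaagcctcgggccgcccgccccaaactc
ANKRD1 (chr10:90921088-90921337, minus strand): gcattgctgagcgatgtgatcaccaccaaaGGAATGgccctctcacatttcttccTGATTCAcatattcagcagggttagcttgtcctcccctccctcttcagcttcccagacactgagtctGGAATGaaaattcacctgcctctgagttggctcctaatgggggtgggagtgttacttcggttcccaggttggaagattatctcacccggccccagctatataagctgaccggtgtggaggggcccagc
THBS1 (chr15:39580829-39581078, plus strand): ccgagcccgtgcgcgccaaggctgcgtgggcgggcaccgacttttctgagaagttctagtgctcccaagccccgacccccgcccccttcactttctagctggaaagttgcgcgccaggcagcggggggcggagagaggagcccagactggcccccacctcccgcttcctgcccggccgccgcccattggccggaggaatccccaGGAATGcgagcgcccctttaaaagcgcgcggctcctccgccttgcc
F3 (chr1:94541760-94542009, minus strand): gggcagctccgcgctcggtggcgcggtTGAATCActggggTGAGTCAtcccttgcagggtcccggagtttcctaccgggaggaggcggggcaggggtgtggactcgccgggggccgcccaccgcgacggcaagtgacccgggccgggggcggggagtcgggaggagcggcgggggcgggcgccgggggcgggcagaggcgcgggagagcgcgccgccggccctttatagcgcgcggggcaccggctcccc
In CCN2 the matches lay at -169 to -164, -104 to -99 and -95 to -90, counted back from the start, the last pair 3 bases apart. In ANKRD1 the TEAD matches lay at -220 to -215 and -128 to -123, with the AP-1 match between them at -195 to -189. THBS1 had its match close to the start, at -46 to -41, and F3 had its AP-1 matches at -223 to -217 and -210 to -204. A match is a description of the letters and not a bound site.

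**Figure D1:**
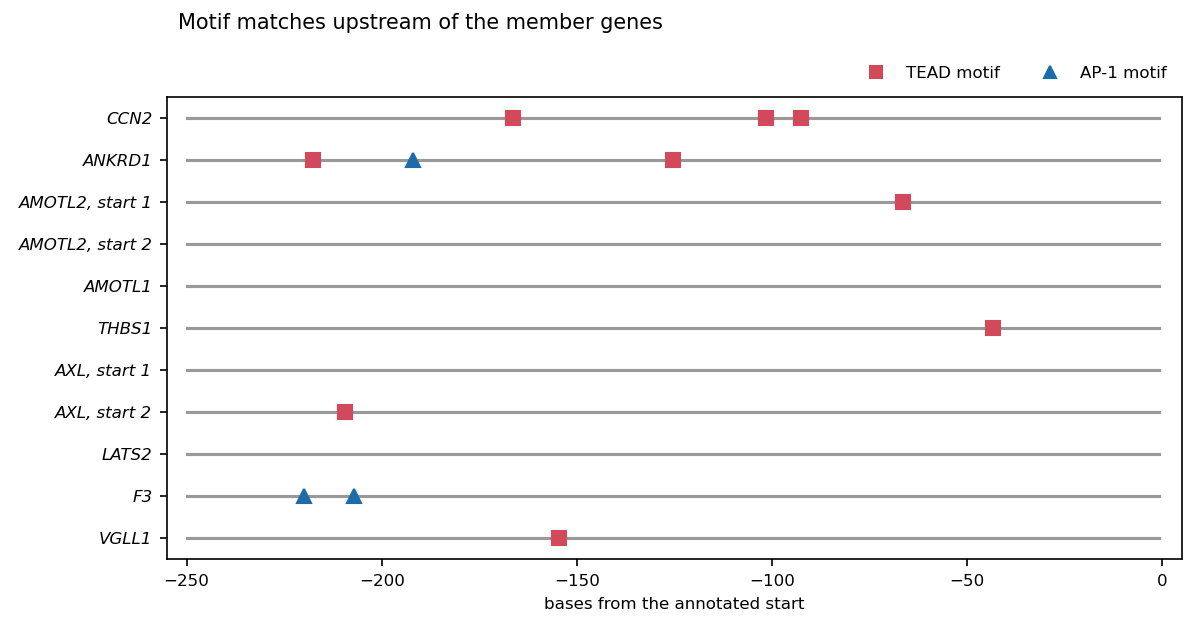
Matches to the TEAD motif (squares) and the AP-1 motif (triangles) in the 250 bases before 11 annotated starts of 9 member genes, against distance from the start in bases. CCN2 shows 3 TEAD matches, ANKRD1 shows 2 and F3 none.

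The values are RMA summaries on a log2 scale, and a gene is its brightest probe set. The medians of the arrays, taken as background, lay between 1.41 and 1.71. A difference between 2 groups is that of their mean log2 values, ± limma's standard error (n = 5 arrays a group), and 1 unit is a 2-fold change. The verbs rose and fell mark an adjusted p below 0.05 (2-sided) in limma, fitted to every gene whose log2 value passed 5 on 5 arrays or more. Shares over all genes count calls in either direction. ERBB2, which encodes HER-2, averaged 6.67 in HB4a, 12.06 in C5.2 and 11.48 in SKBR3 vehicle. In vehicle all 7 epithelial markers averaged over 5 in HB4a and C5.2, and 6 of 7 in SKBR3, where E-cadherin CDH1 was at background on 4 of 5 arrays. Basal KRT14 was at background in every group, and 0 of 4 leukocyte and 0 of 5 endothelial markers averaged over 5 in any. SKBR3 vehicle array 3 stood apart. The 6 genes looked at averaged over 9 in HB4a and in C5.2 vehicle and lay at or under 2 on the other 4 arrays. They were a median 4.95 higher on array 3, and AXL read 4.33 on it against 0.39 to 0.69. SKBR3 vehicle array 1 was the lowest of its group for CCN1, CCN2 and AMOTL2. Nothing in the labels says that the experiments used separate cell stocks, so p-values measure the spread between these arrays. In such bulk RNA, fewer cells of a type and less RNA per cell cannot be told apart.
In HB4a, CCN2 was higher with rapamycin and with both drugs, and not with doxorubicin alone. It read 6.07, 6.27, 6.54, 7.18 and 5.78 in vehicle and 8.12, 8.39, 9.12, 8.77 and 8.70 with rapamycin. The groups do not overlap, and the difference was 2.25 ± 0.25, a 4.77-fold higher level. With both drugs it read 8.09, 8.75, 7.90, 8.59 and 8.78, again above every vehicle array, a difference of 2.05 ± 0.25. Doxorubicin alone left it at 5.89, 6.84, 6.52, 6.71 and 6.04, a difference of 0.03 ± 0.25 within the spread of the arrays.
CCN1 was higher too in HB4a, from a higher level and by less. It read 9.91, 10.47, 10.40, 10.61 and 9.91 in vehicle, 10.90, 10.88, 11.29, 11.14 and 10.98 with rapamycin, and 11.00, 11.18, 11.09, 11.06 and 11.01 with both drugs. The rapamycin and vehicle groups do not overlap (0.78 ± 0.13), nor do both drugs and vehicle (0.81 ± 0.13). The doxorubicin difference was 0.03 ± 0.13. The dimmer CCN1 probe set gave larger differences, 1.22 ± 0.20 with rapamycin and 1.41 ± 0.20 with both drugs.
ANKRD1 lay under the filter in HB4a and was not tested there. It read 2.55, 1.83, 2.04, 2.60 and 2.12 in vehicle, and 4.29, 2.57, 3.92, 3.57 and 3.62 with rapamycin. Only rapamycin array 2 fell inside the vehicle range, and the difference was 1.36 ± 0.31. It was 1.37 ± 0.31 with both drugs, where the groups do not overlap, and 0.82 ± 0.31 with doxorubicin, where they do.
AMOTL2 and LATS2, the feedback genes, were higher too. AMOTL2 read 7.28, 7.72, 7.55, 7.91 and 7.50 in vehicle, 7.93, 8.18, 8.29, 8.50 and 8.22 with rapamycin (0.63 ± 0.13) and 7.91, 8.23, 8.17, 8.40 and 8.19 with both drugs (0.59 ± 0.13). Neither treated group overlaps vehicle, though the closest arrays are nearly equal. LATS2 read 5.52, 5.11, 5.74, 6.01 and 5.69 in vehicle, 6.10, 6.15, 6.23, 6.68 and 6.06 with rapamycin (0.63 ± 0.15) and 6.23, 6.37, 6.08, 6.43 and 6.26 with both drugs (0.66 ± 0.15). All treated arrays lay above all vehicle arrays. The LATS2 rapamycin call rests on single arrays: it ended without vehicle array 1 or 2 or without rapamycin array 4. AMOTL1, the other angiomotin, differed by 0.00 ± 0.10 with rapamycin.
THBS1 went the other way with doxorubicin in HB4a. It read 8.40, 8.82, 8.35, 8.82 and 8.60 in vehicle and 7.95, 7.44, 7.40, 7.61 and 7.05 with doxorubicin, with no overlap and a difference of -1.10 ± 0.15. With rapamycin it read 9.43, 8.86, 9.29, 9.06 and 9.01, above all vehicle arrays (0.53 ± 0.15). With both drugs it read 8.50, 8.04, 8.30, 8.45 and 8.13, and the group overlaps vehicle (-0.31 ± 0.15). The 3 brightest THBS1 probe sets agreed in sign for each single drug but not in size, since 1 of them gave -0.33 ± 0.14 with doxorubicin against 0.64 ± 0.14 with rapamycin.
F3, like THBS1, was lower with doxorubicin and higher with rapamycin in HB4a, but less clearly. It read 6.59, 6.70, 6.17, 6.58 and 6.29 in vehicle, 6.33, 6.31, 5.39, 5.72 and 5.27 with doxorubicin (-0.66 ± 0.25) and 7.68, 6.86, 6.89, 6.73 and 6.28 with rapamycin (0.42 ± 0.25). Both groups overlap vehicle. AXL averaged 8.61 (SD 0.23) in vehicle, and the differences were 0.39 ± 0.11 with doxorubicin, 0.23 ± 0.11 with rapamycin and 0.56 ± 0.11 with both drugs. Only with both drugs did it clear the vehicle range, from 8.99 to 9.30 against 8.37 to 8.97. The second AXL probe set, which is dimmer, gave 0.17 ± 0.15 with doxorubicin.
VGLL1 followed the experiment number more than the treatment in HB4a. It read 5.53, 6.16, 6.97, 7.31 and 6.80 in vehicle, 5.66, 6.01, 7.06, 7.32 and 6.86 with doxorubicin, and 5.53, 6.27, 7.03, 7.07 and 7.07 with rapamycin. Equal numbers differed by at most 0.27 between these groups and vehicle, while the vehicle arrays ran from 5.53 to 7.31. With both drugs it read 5.41, 6.80, 5.74, 6.90 and 6.64, so number 2 lay above number 3, the reverse of the order in the other HB4a groups. Over all genes tested, the deviations of equal numbers correlated down to -0.536 between both drugs and vehicle. The cause was not tested, and the numbers were left as labelled.
Of the 9 members tested in HB4a, 2 passed the threshold with doxorubicin (AXL higher and THBS1 lower), beside 11.4% of all genes. With rapamycin 4 passed (CCN1, CCN2, AMOTL2 and LATS2, all higher), beside 3.18%, and with both drugs 5 passed (those 4 and AXL, all higher), beside 17.4%. Equal numbers paired the doxorubicin and rapamycin arrays with vehicle in HB4a. A further fit held the number as a replicate block, which takes out differences shared by all arrays of a number. In it 4 members passed with doxorubicin (AMOTL2 and F3 added), beside 32.7%, and 5 with rapamycin (THBS1 added), beside 16.3%. It used all 20 HB4a arrays, also those with both drugs, whose numbers did not pair with the other groups (lowest correlation -0.569). The HB4a contrasts with vehicle helped to choose the genes, so nothing is read from the counts. The AXL doxorubicin call ended without any of 6 of the 10 arrays, vehicle 1, 3 and 6 and doxorubicin 3, 4 and 6. It also ended with the mean of both AXL probe sets, and both AXL calls in HB4a ended when all 60 arrays shared 1 fit. Markers differed in HB4a as well. Of the 3 basal markers with a value, KRT5 differed by -1.01 ± 0.13 with rapamycin and -1.58 ± 0.13 with both drugs, KRT14 was at background, and ITGB4 averaged 5.33 (SD 0.15) in vehicle, 5.71 (SD 0.33) with rapamycin and 5.52 (SD 0.17) with both drugs. Of 4 fibroblast and mesenchymal markers tested, 1 passed with rapamycin, FN1 (0.53 ± 0.11), and 1 with both drugs, DCN (-0.88 ± 0.30). The mean of the 7 epithelial markers on an array ran from 9.38 to 9.58 in vehicle, 9.14 to 9.56 with rapamycin and 9.08 to 9.31 with both drugs. Their part in the results was not tested.

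**Figure D2:**
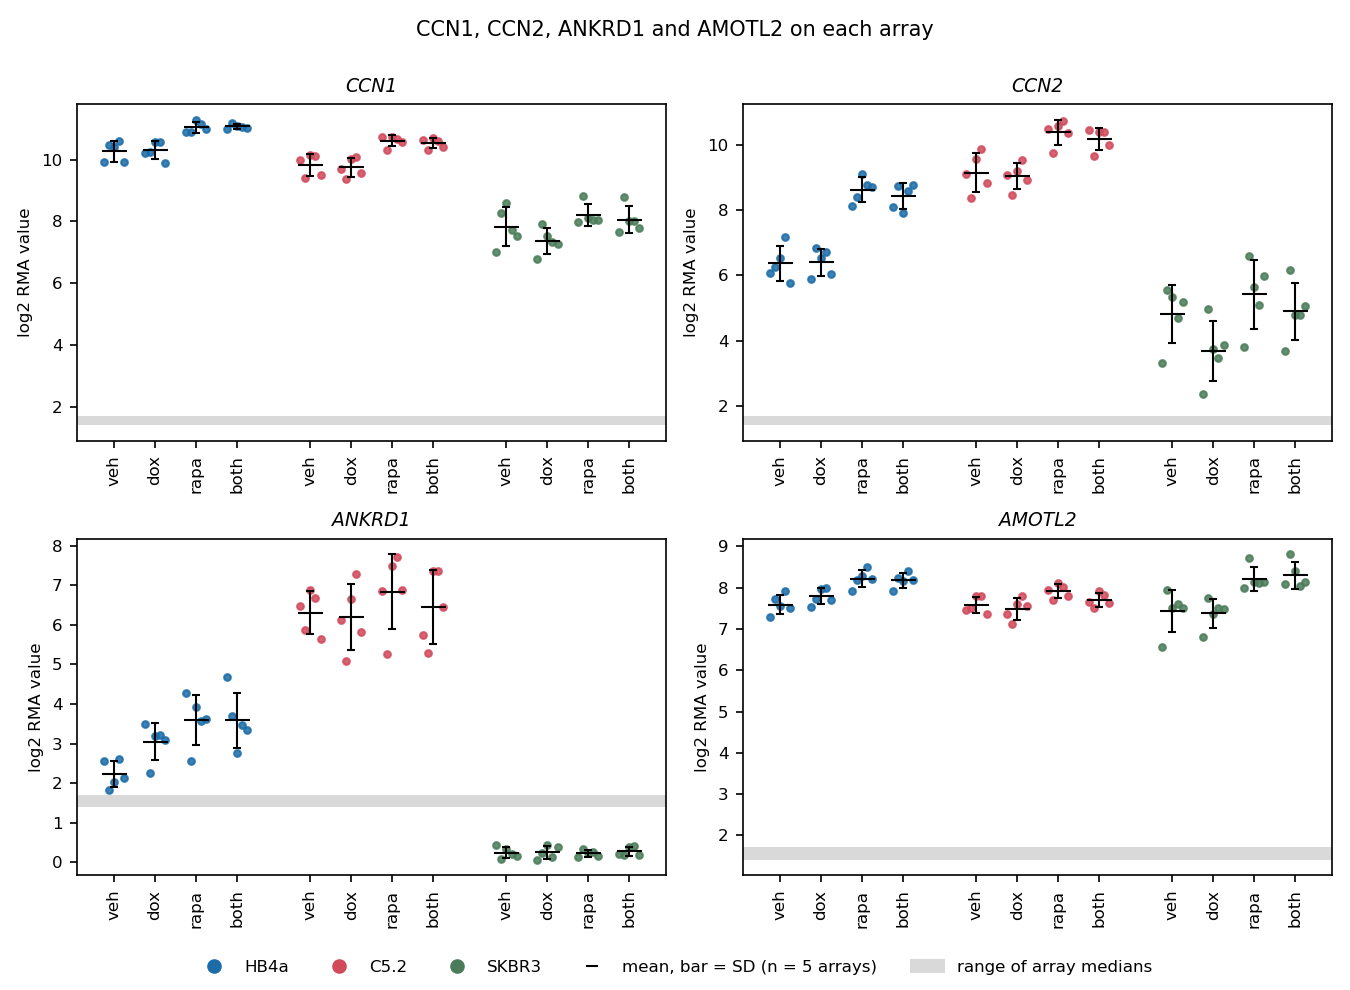
Log2 RMA values of CCN1, CCN2, ANKRD1 and AMOTL2 on each of 60 arrays (points), by line and treatment, with group mean and SD (n = 5 arrays), and the range of array medians in grey. CCN2 in HB4a lies at 7.90 or above with rapamycin or both drugs and at 7.18 or below otherwise, and ANKRD1 lies under the grey band in SKBR3.

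In C5.2, CCN1 and CCN2 rose with rapamycin, and AMOTL2 came close to the threshold (limma adjusted p = 0.0699). CCN2 read 9.10, 8.37, 9.58, 9.87 and 8.82 in vehicle and 10.49, 9.74, 10.59, 10.74 and 10.37 with rapamycin. Only rapamycin array 2 lay inside the vehicle range, and CCN2 rose by 1.24 ± 0.25, or 2.36-fold (limma adjusted p = 0.00271). CCN1 read 9.98, 9.41, 10.16, 10.11 and 9.49 in vehicle and 10.72, 10.31, 10.74, 10.67 and 10.57 with rapamycin. These groups do not overlap, and CCN1 rose by 0.77 ± 0.15 (limma adjusted p = 0.0022), as a second probe set did by 1.34 ± 0.23. So 2 of the 9 members tested rose and 0 fell, beside 17.4% of all genes called, 178 of them higher and 919 lower.
Within each experiment number the rapamycin difference of CCN2 in C5.2 ran from 0.87 to 1.55, and that of CCN1 from 0.56 to 1.07, positive in 5 of 5. Equal numbers only just paired the arrays in this comparison (lowest correlation 0.105, where over 0.1 was asked). With the number as a replicate block 6 members rose, beside 44.2% of all genes. Here and below, ± is the standard error without the block unless stated, also where a p with the block follows. Added were AMOTL2 (0.34 ± 0.13, where the adjusted p of 0.0699 became 0.000823), THBS1 (0.36 ± 0.31, 0.447 and 0.00922), LATS2 (0.30 ± 0.23, 0.381 and 0.0188) and ANKRD1 (0.53 ± 0.47, 0.467 and 0.0444). AMOTL2, THBS1 and LATS2 were higher in 5 of 5 experiments. Without the block, AMOTL2 also passed with quantile normalization (limma adjusted p = 0.0231) and when the number 2 arrays of C5.2 were left out (0.0303).
Both drugs gave C5.2 nearly the same CCN1 and CCN2 levels as rapamycin alone. CCN2 read 10.44, 9.65, 10.38, 10.40 and 9.99 and rose by 1.03 ± 0.25 (limma adjusted p = 0.0073), and CCN1 read 10.62, 10.31, 10.69, 10.60 and 10.39 and rose by 0.69 ± 0.15 (limma adjusted p = 0.00323). The call of CCN2 ended when all 60 arrays shared 1 fit (adjusted p = 0.0633). These were 2 of 9 members, beside 21.0% of all genes. Equal numbers did not pair these arrays (lowest correlation -0.10). AMOTL1 came close to the threshold with both drugs (0.36 ± 0.14, limma adjusted p = 0.0653). It passed with quantile normalization (0.00996), with all 60 arrays in 1 fit (0.0139) and without the number 2 arrays (0.00673). The mean of the 7 epithelial markers on a C5.2 array ran from 7.48 to 8.19 in vehicle, 7.18 to 7.93 with rapamycin and 6.98 to 7.61 with both drugs. With rapamycin 2 of these 7 fell and 0 rose, and with both drugs 3 fell and 0 rose, while KRT5 fell by 0.97 ± 0.28 and 1.94 ± 0.28 (limma adjusted p = 0.0236 and 9.59e-05). ITGB4, the other basal marker above background, was under the filter in C5.2 and averaged 3.13 (SD 0.48) in vehicle, 3.93 (SD 0.37) with rapamycin and 3.80 (SD 0.32) with both drugs. Of 5 fibroblast and mesenchymal markers tested, FN1 rose with rapamycin by 0.69 ± 0.23 (limma adjusted p = 0.0439). With both drugs 3 of the 5 fell, DCN by 1.54 ± 0.27 (0.000521), COL3A1 by 0.53 ± 0.15 (0.0163) and SPARC by 0.47 ± 0.13 (0.0151). Their part in the results was not tested.
Doxorubicin alone changed none of the 9 members tested in C5.2 at adjusted p under 0.05 in limma, and 2 at an unadjusted p under 0.05, beside 3.26% of all genes at the adjusted threshold. With the replicate block, which the pairing of equal numbers narrowly allows here (lowest correlation 0.132), 2 were called, beside 17.4% of all genes. THBS1 read 8.57, 8.40, 9.12, 9.20 and 8.74 in vehicle and 7.92, 7.13, 8.52, 8.85 and 8.36 with doxorubicin. It was lower in 5 of 5 experiments (-0.65 ± 0.31), where the adjusted p of 0.348 became 0.000343 with the block. AMOTL1 was higher in 5 of 5 (0.33 ± 0.14, adjusted p from 0.247 to 0.0058 with the block), from 5.75, 5.51, 5.76, 5.94 and 5.90 to 6.06, 5.71, 6.14, 6.36 and 6.24. CCN2 (-0.10 ± 0.25) and CCN1 (-0.09 ± 0.15) stayed within the spread of the arrays.
ANKRD1 in C5.2 averaged 6.31 (SD 0.54) in vehicle and 6.84 (SD 0.95) with rapamycin, and its groups overlap with every treatment. VGLL1 lay at background on every C5.2 array, from 0.19 to 1.17, and was not tested in that line. AXL, LATS2 and F3 had no call in C5.2 with any treatment without the block when all 5 numbers were kept. Without number 2, F3 was called with both drugs (-0.40 ± 0.14, limma adjusted p = 0.046). F3 array 2 with both drugs read 2.84 against 4.43 to 4.83 on the other 4.

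**Figure D3:**
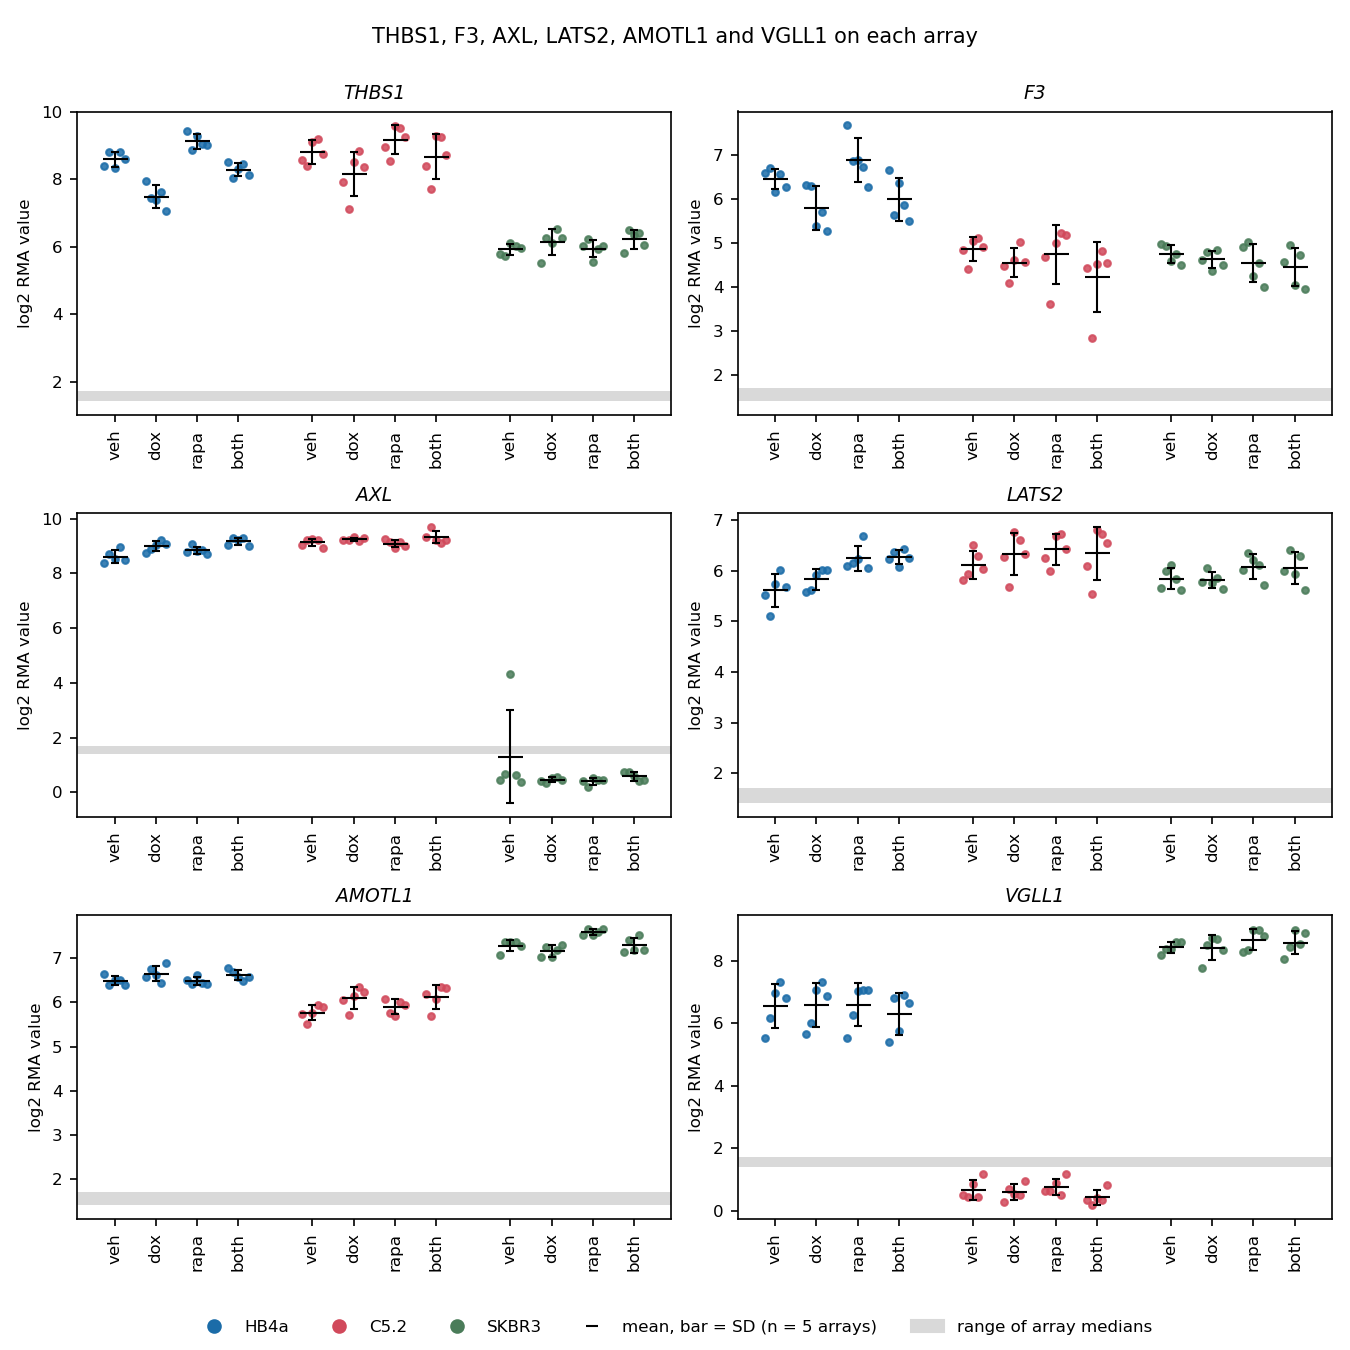
Log2 RMA values of THBS1, F3, AXL, LATS2, AMOTL1 and VGLL1 on each array (points), by line and treatment, with group mean and SD (n = 5 arrays), and the range of array medians in grey. THBS1 in HB4a is at 7.95 or below with doxorubicin and at 8.35 or above in vehicle, and AXL in SKBR3 and VGLL1 in C5.2 lie under the grey band except for 1 AXL array at 4.33.

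In SKBR3 the feedback gene AMOTL2 rose and CCN1 and CCN2 were not called. AMOTL2 read 6.57, 7.94, 7.51, 7.60 and 7.51 in vehicle, 7.99, 8.71, 8.14, 8.11 and 8.13 with rapamycin, and 8.08, 8.82, 8.41, 8.05 and 8.14 with both drugs. Every treated array lay above every vehicle array. AMOTL2 rose by 0.79 ± 0.22 with rapamycin (limma adjusted p = 0.0143) and by 0.87 ± 0.22 with both drugs (limma adjusted p = 0.0074). The rapamycin call ended without rapamycin array 2 (adjusted p = 0.0503). AMOTL1 rose with rapamycin as well, by 0.32 ± 0.09 (limma adjusted p = 0.0195), from 7.07, 7.36, 7.37, 7.37 and 7.27 to 7.54, 7.67, 7.54, 7.60 and 7.67. Without vehicle array 3 the rapamycin differences were 0.81 ± 0.24 for AMOTL2 and 0.34 ± 0.10 for AMOTL1, both still called (limma adjusted p = 0.025 and 0.0265). The AMOTL1 call ended without vehicle array 1 (highest adjusted p = 0.0622), and with both drugs AMOTL1 stood at 0.00 ± 0.09. So 2 of the 7 members tested rose with rapamycin, beside 18.3% of all genes, and 1 of 7 with both drugs, beside 22.0%.
CCN2 in SKBR3 differed widely between the arrays of a group. It read 3.32, 5.55, 5.35, 4.69 and 5.2 in vehicle and 2.38, 4.97, 3.74, 3.46 and 3.87 with doxorubicin. The groups overlap, and the difference was -1.14 ± 0.53 (limma adjusted p = 0.675). Yet within the numbers it was -0.94, -0.57, -1.61, -1.23 and -1.33, lower in 5 of 5, and equal numbers paired the SKBR3 arrays. With the replicate block its adjusted p was 1.42e-05. CCN1 was lower in 5 of 5 too, by -0.24, -0.35, -1.06, -0.38 and -0.25, and its adjusted p went from 0.901 to 0.0464 with the block (-0.46 ± 0.27). So doxorubicin called 0 of 7 members without the block in limma (1 at an unadjusted p under 0.05), beside 0.837% of all genes, and 2 of 7 with it, beside 5.00%. The largest CCN1 and CCN2 differences came from number 3, whose vehicle array stood apart. Without that array, in the fit without the block, the differences were -1.01 ± 0.57 for CCN2 (limma adjusted p = 0.944) and -0.26 ± 0.26 for CCN1, both uncalled. The block was not fitted without that array, so whether its calls rest on number 3 was not tested.
With rapamycin alone, CCN2 in SKBR3 was higher in 5 of 5 experiments, by 0.30 to 1.05 (0.61 ± 0.53, limma adjusted p from 0.479 to 0.00158 with the block). CCN1 was higher in 4 of 5, with number 3 at -0.48 (0.37 ± 0.27, 0.38 and 0.0265). LATS2 was higher in 5 of 5, by 0.10 to 0.37 (0.24 ± 0.15, 0.283 and 0.0339). With the block 5 of 7 members rose with rapamycin, beside 41.8% of all genes. With both drugs CCN2 was higher in 3 of 5 and lower in 2 (0.07 ± 0.53), and neither fit called it. Without vehicle array 3, in the fit without the block, the rapamycin differences were 0.74 ± 0.57 for CCN2 and 0.56 ± 0.26 for CCN1, both uncalled. ANKRD1 lay between 0.07 and 0.44 on all SKBR3 arrays, under every array median. AXL and F3 were under the filter in SKBR3 and were not tested.

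**Figure D4:**
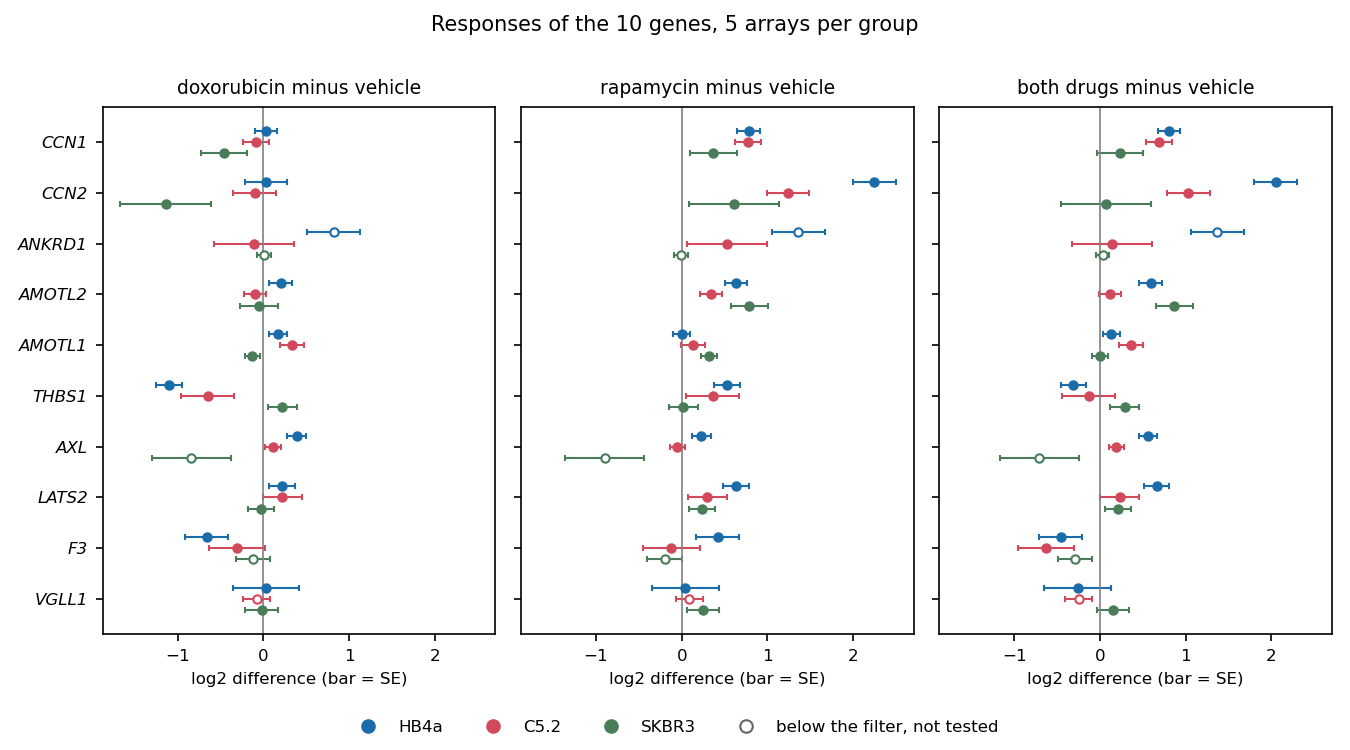
Log2 difference of each treatment from vehicle (points, bars are limma standard errors, n = 5 arrays a group) for the 10 genes in HB4a, C5.2 and SKBR3, with open points for genes under the filter. CCN2 with rapamycin stands at 2.25 in HB4a, 1.24 in C5.2 and 0.61 in SKBR3, and the open AXL points of SKBR3 rest on the single vehicle array at 4.33.

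**Figure D5:**
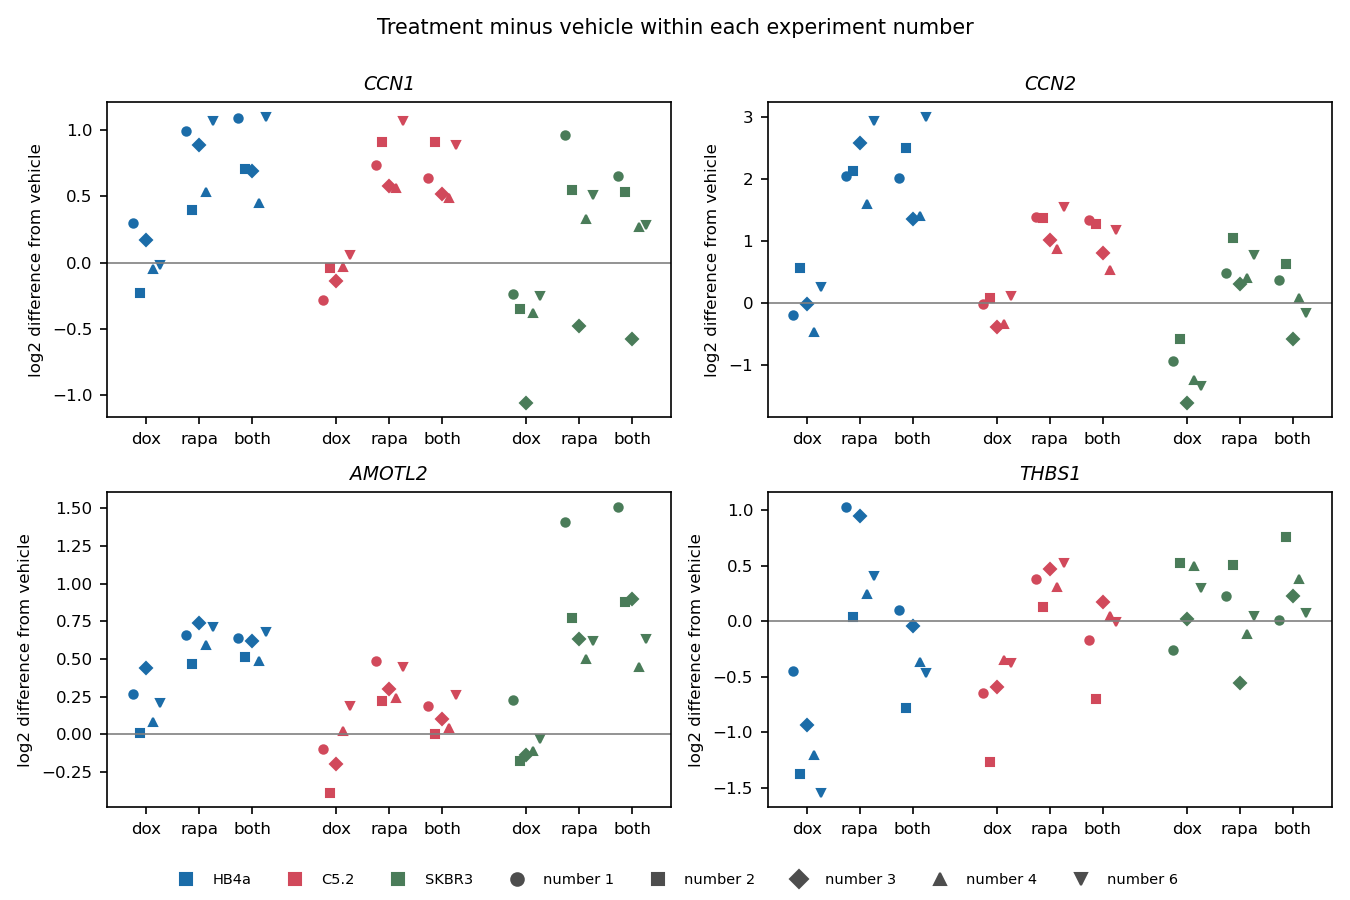
Treatment minus vehicle within each experiment number (symbols) in log2 units for CCN1, CCN2, AMOTL2 and THBS1 in the 3 lines. CCN2 with rapamycin lies above 0 in 5 of 5 experiments of each line, and with doxorubicin in SKBR3 it lies below 0 in 5 of 5.

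Set against each single drug, the combined treatment raised CCN1 and CCN2 over doxorubicin in C5.2 and gave neither a call against rapamycin there. Against doxorubicin alone, both drugs raised CCN2 by 1.13 ± 0.25 in C5.2 (limma adjusted p = 0.00634) and CCN1 by 0.78 ± 0.15 (limma adjusted p = 0.00294). In HB4a these differences were 2.02 ± 0.25 for CCN2 and 0.77 ± 0.13 for CCN1. They follow from the HB4a values known when the genes were chosen, so the HB4a comparisons between treatments are given with no p. Against rapamycin alone CCN2 differed by -0.20 ± 0.25 in HB4a and -0.21 ± 0.25 in C5.2, within the standard error. Within the numbers of C5.2, CCN2 ran from -0.38 to -0.05 and CCN1 from -0.18 to -0.00, lower in 5 of 5. With the replicate block neither was called there. In C5.2 2 of 9 members rose against doxorubicin, beside 13.5% of all genes. In HB4a 3 of 9 passed the threshold, beside 2.58%, and nothing is read from that count.
THBS1 in HB4a lay between the single drugs. With both drugs it was 0.79 ± 0.15 above doxorubicin, and it differed by -0.85 ± 0.15 from rapamycin. F3 differed by -0.88 ± 0.25 from rapamycin. These were the 2 of 9 members that passed the threshold against rapamycin in HB4a, both lower, beside 8.84% of all genes, and nothing is read from the count. F3 no longer passed with no filter, without rapamycin array 1 or 3, or without combined array 2, 4 or 6.
In C5.2, 0 of 9 members were called between both drugs and rapamycin in limma, beside 6.39% of all genes, and 1 had an unadjusted p under 0.05. With the replicate block 5 were, beside 22.2%: THBS1 (-0.49 ± 0.31, adjusted p from 0.474 to 0.00198), F3 (-0.51 ± 0.33, 0.482 and 0.0293), AMOTL2 (-0.22 ± 0.13, 0.411 and 0.0281), AMOTL1 (0.23 ± 0.14, 0.439 and 0.0393) and AXL (0.23 ± 0.09, 0.17 and 0.0446). THBS1 and F3 were lower in 5 of 5 experiments there. Against doxorubicin the block called 4 of 9 in C5.2, beside 38.0%, adding THBS1 (0.52 ± 0.31, 0.293 and 0.000855) and AMOTL2 (0.21 ± 0.13, 0.284 and 0.0214).
In SKBR3 both drugs raised AMOTL2 over doxorubicin by 0.92 ± 0.22 (limma adjusted p = 0.00479), 1 of 7 members, beside 22.0% of all genes. With the block 4 of 7 rose, beside 49.6%, adding CCN2 (1.21 ± 0.53, 0.108 and 8.43e-07), CCN1 (0.68 ± 0.27, 0.0729 and 0.00026) and LATS2 (0.24 ± 0.15, 0.245 and 0.0282). Against rapamycin 0 of 7 were called in limma (1 at an unadjusted p under 0.05), beside 0.552%, and 2 with the block, beside 6.64%. These were CCN2 (-0.53 ± 0.53, 0.847 and 0.0257) and AMOTL1 (-0.31 ± 0.09, 0.221 and 0.0108), lower in 5 of 5 experiments. With the block their standard errors were 0.14 for CCN2 and 0.07 for AMOTL1.
Between the lines in vehicle, the members did not share an order. C5.2 held CCN2 2.78 ± 0.26 and ANKRD1 4.08 ± 0.42 above its parent HB4a, with no overlap, while CCN1 differed by -0.43 ± 0.15 and the groups overlap. F3 differed by -1.59 ± 0.30 and AMOTL1 by -0.72 ± 0.12, without overlap. VGLL1 read 0.49, 0.44, 0.84, 0.43 and 1.16 in C5.2, at background on every array, at least 4.93 under HB4a. AXL (0.53 ± 0.10) and LATS2 (0.51 ± 0.20) were higher with overlap, and THBS1 (0.21 ± 0.25) and AMOTL2 (-0.01 ± 0.13) lay within the spread. The second AXL probe set had the other sign (-0.08 ± 0.14), and the AXL call ended with the mean of both sets. The AXL and CCN1 calls ended when all 60 arrays shared 1 fit, and the LATS2 call with quantile normalization. In this contrast, which helped to choose the genes, 8 of 10 members passed, beside 49.2% of all genes. The CCN1 call ended without HB4a array 4 or C5.2 array 2 or 6, and the LATS2 call without HB4a array 1 or 2 or C5.2 array 3 or 4.
SKBR3 vehicle had lower CCN1, CCN2, THBS1 and AXL than both other lines, and lower F3 than HB4a alone. These comparisons reuse the HB4a and C5.2 vehicle arrays known when the genes were chosen, so they are given with no p. CCN1 differed from HB4a by -2.44 ± 0.22, THBS1 by -2.67 ± 0.16 and F3 by -1.71 ± 0.24. F3 averaged 4.75 in SKBR3 and 4.87 in C5.2, with no call between these lines. CCN2 differed by -1.55 ± 0.43 from HB4a and by -4.33 ± 0.44 from C5.2. AXL, at background on 4 of 5 SKBR3 arrays, was lower by at least 6.54 than in HB4a. ANKRD1, at background on all, was lower by at least 4.81 than in C5.2. AMOTL1 and VGLL1 went the other way. SKBR3 VGLL1 read 8.20, 8.37, 8.39, 8.62 and 8.61, higher than HB4a by 1.88 ± 0.32 and than C5.2 by at least 6.82. AMOTL1 was higher than in HB4a by 0.80 ± 0.09 and than in C5.2 by 1.52 ± 0.12. AMOTL2 and LATS2 had no call in either comparison. Without SKBR3 vehicle array 3 every call of these members against HB4a and C5.2 stood, with CCN1 at -2.63 ± 0.22 and CCN2 at -1.68 ± 0.46 against HB4a.
So 2 of 9 members tested were higher and 5 lower in SKBR3 than in HB4a, beside 77.3% of all genes called, and 2 of 10 higher and 5 lower than in C5.2, beside 78.8%. By mean level in vehicle, CCN2 ran C5.2, HB4a, SKBR3 and VGLL1 ran SKBR3, HB4a, C5.2, each with no overlap between neighbours. CCN1 ran HB4a, C5.2, SKBR3, with HB4a and C5.2 overlapping. The 9 fibroblast and mesenchymal markers averaged, by array, 6.23 to 6.40 in C5.2, 5.2 to 5.49 in HB4a and 1.71 to 2.86 in SKBR3 vehicle. The 7 epithelial markers averaged 7.48 to 8.19 in C5.2, 9.38 to 9.58 in HB4a and 8.77 to 9.48 in SKBR3 vehicle. The part of either list was not tested. Medium, any processing batch and line cannot be told apart here.
Differences in response between lines contain the HB4a contrasts known when the genes were chosen, so they are given as a description, with no p. Among the members 2 values passed the threshold. The doxorubicin response of THBS1 was 1.32 ± 0.23 higher in SKBR3 than in HB4a. With doxorubicin THBS1 was lower in 5 of 5 HB4a experiments and in 1 of 5 of SKBR3. This was 1 of 9 members, beside 3.87% of all genes. With the mean of all its probe sets THBS1 was under the filter and was not tested, and without SKBR3 vehicle array 3 the difference was 1.36 ± 0.24. The response of CCN2 to both drugs differed by -1.98 ± 0.62, smaller in SKBR3, 1 of 9, beside 9.82%. It no longer passed without SKBR3 vehicle array 3 (-1.85 ± 0.64) or without any of 11 of the 20 arrays. For rapamycin 0 of 9 members differed between SKBR3 and HB4a in limma (4 at an unadjusted p under 0.05), beside 5.03% of all genes, and with the number as a random replicate block 5 did, beside 22.0%. CCN2 was among them (-1.65 ± 0.62). That block also called 3 of 9 members for doxorubicin, beside 15.9%, and 5 of 9 for both drugs, beside 31.2%.
Between C5.2 and HB4a, 0 of 10 members differed in their response to doxorubicin, rapamycin or both drugs in limma, beside 0.101%, 0 and 0.373% of all genes. At an unadjusted p under 0.05 these were 0, 1 and 4 of 10. The CCN2 response in C5.2 differed from that in HB4a by -1.01 ± 0.37 for rapamycin and -1.03 ± 0.37 for both drugs. With a random replicate block both passed, and 1 and 4 of 10 members were called, beside 2.56% and 10.1% of all genes. CCN1 differed by -0.01 ± 0.21 for rapamycin, an estimate close to 0.
YAP1, WWTR1 and the TEAD factors tested had no treatment call against vehicle, and RUNX2, a transcription factor that YAP can bind, had 1. In vehicle, YAP1 had a mean of 6.24 (SD 0.46) in HB4a, of 5.95 (SD 0.21) in C5.2 and of 6.18 (SD 0.50) in SKBR3. WWTR1, which encodes TAZ, averaged 5.49 (SD 0.41), 6.26 (SD 0.20) and 6.14 (SD 0.24). TEAD4 was level at 6.66, 6.56 and 6.55, and TEAD3 was low in all, at 4.05, 3.87 and 3.73. TEAD1 ran from 4.58 in HB4a and 5.40 in C5.2 to 6.25 in SKBR3, 1.67 ± 0.32 above HB4a (limma adjusted p = 1.3e-05), and TEAD2 was lower in SKBR3 (-1.53 ± 0.15, limma adjusted p = 7.54e-12). Of the 7 factors tested in C5.2, RUNX2 rose with rapamycin by 0.92 ± 0.21 (limma adjusted p = 0.0051), beside 17.4% of all genes called. It averaged 4.42 (SD 0.13) in vehicle, 5.34 (SD 0.32) with rapamycin and 4.59 (SD 0.51) with both drugs there. Both drugs lowered it against rapamycin (-0.75 ± 0.21, limma adjusted p = 0.0324), and in HB4a that difference was -1.22 ± 0.26. YAP1, WWTR1, TEAD1, TEAD2 and TEAD4 had no call in any of the 9 treatments against vehicle. The nearest was WWTR1 with both drugs in SKBR3 (-0.45 ± 0.19, limma adjusted p = 0.0845).
Other genes of the pathway came from lists written by name, with earlier results of these data known. Of 12 tested Hippo kinases and upstream regulators, 0 were called with any treatment in HB4a in limma, and 0 had an unadjusted p under 0.05. The shares over all genes there were 11.4% with doxorubicin, 3.18% with rapamycin and 17.4% with both drugs. Nothing is read from the count. In C5.2 with rapamycin 2 of 14 fell, the YAP inhibitor NF2 by 0.27 ± 0.07 (limma adjusted p = 0.0146) and the scaffold WWC1 by 0.66 ± 0.21 (0.0357), and in SKBR3 1 of 13 fell, RASSF1 by 0.28 ± 0.10 (0.0447). Of all genes, 17.4% were called with rapamycin in C5.2 and 18.3% in SKBR3, so these shares are at or below those over all genes. Of 11 other YAP and TAZ targets tested in C5.2, 1 rose with rapamycin, TGFB2 by 1.52 ± 0.33 (limma adjusted p = 0.00424). Over all genes that 17.4% was made of 178 that rose and 919 that fell. With both drugs there, beside 21.0% of all genes called, 1 of 11 rose, the stress gene GADD45A by 0.89 ± 0.23 (0.00875), and 3 fell, FJX1 by 1.07 ± 0.16 (0.000116) and CCDC80 by 1.03 ± 0.26 (0.00837) among them. In SKBR3 2 of 6 rose with rapamycin, CRIM1 by 0.56 ± 0.15 (0.0135) and MYOF by 0.48 ± 0.11 (0.00384), beside the 18.3%, and the same pair rose with both drugs, beside 22.0%. So genes of the target lists moved in both directions. The list medians with rapamycin were 0.31 in HB4a, 0.21 in C5.2 and 0.27 in SKBR3. Over all genes tested the medians were 0.01, -0.08 and -0.03. The lists were written with results of these data known, so nothing is read from the medians.
The targets of serum response factor include the actin gene ACTA2, a marker of contractile cells. In HB4a, ACTA2 differed by 1.93 ± 0.17 with doxorubicin and 1.91 ± 0.17 with both drugs, while THBS1 was lower with doxorubicin. With both drugs in C5.2, ACTA2 rose by 0.88 ± 0.28 (limma adjusted p = 0.0291) and the LIM protein FHL2 by 0.67 ± 0.08 (1.56e-05), among 2 of 11 that rose and 1 that fell, beside 21.0% of all genes called. In vehicle 7 of 11 passed as higher and 0 as lower in C5.2 than in HB4a, beside 49.2% of all genes, a contrast that helped to choose the members. Among family members and partners, TFPI, an inhibitor of the coagulation pathway that F3 starts, rose in C5.2 by 1.08 ± 0.18 with rapamycin (limma adjusted p = 0.000606) and by 0.51 ± 0.18 with both drugs (0.0466). Its relative TFPI2 rose by 0.57 ± 0.18 with both drugs (0.0299). GAS6, the ligand of AXL, was higher in HB4a with rapamycin (0.58 ± 0.14).
The genes whose pattern was most like that of CCN2 were CCN1 (Pearson r = 0.923), the ERK phosphatase DUSP5 (0.918), the transcription factor KLF6 (0.878), the vasoactive peptide gene EDN1 (0.874) and AMOTL2 (0.866). For CCN1 they were CCN2 (0.923), AMOTL2 (0.854), DUSP5 (0.848), KLF6 (0.841) and the noncoding RNA ZFAS1 (0.834). These values come from the 40 arrays of HB4a and C5.2, centred on each line, over 5578 genes. The arrays share treatments and experiments, so this is a description. Of the other members LATS2 (0.679) and THBS1 (0.565) came next for CCN2, and F3 (0.216) and AMOTL1 (0.129) were far down. With rapamycin in C5.2, DUSP5 differed by 1.20 ± 0.15 and KLF6 by 1.20 ± 0.31. The ranking used these same arrays and so favours genes that move with CCN2, and no p is given. In SKBR3, where CCN2 had no call without the block, EDN1 rose by 1.08 ± 0.20 with rapamycin (limma adjusted p = 0.000729) and by 1.05 ± 0.20 with doxorubicin (0.00833).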

How the data were processed

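RNA was measured on 60 Affymetrix U133 Plus 2 arrays, 5 for each of 3 lines and 4 treatments, and GEO's labels gave every group and experiment number. The authors deposited RMA values (version not given) on a log2 scale, per the submitters' processing notes; the base was taken from their range, -0.60 to 13.08. The number of arrays limits the precision. Of 54675 probe sets, 41091 carried 1 symbol, 1801 several and 11777 none, besides 6 controls, which left 19775 genes. A gene is its brightest probe set. Values at or under an array's median were taken as background, and a difference from a group with 2 or more such arrays is given as "at least". Tests used limma 3.58.1 in R 4.3.3 (lmFit and eBayes with trend, 2-sided), with Benjamini-Hochberg adjustment over all genes past the filter (log2 over 5 on 5 arrays), over the 20 arrays of a line or the 40 of a pair of lines. On simulated data for rapamycin in HB4a, 90% of changes of 1 log2 unit and 39% of those of 0.5 were recovered among 6167 genes. Treatments share their vehicle arrays.
Equal experiment numbers were taken to pair arrays where every pair's deviations correlated over 0.1. This held for every comparison within a line except those of both drugs in HB4a and of both drugs against vehicle in C5.2. The replicate block within a line was fitted over its 20 arrays, so in HB4a and C5.2 it also drew on arrays that did not pair. Other settings were another filter, normalization, probe set rule, set of arrays and variance model. All 10 members are named; from each other list the named genes are up to 3 with the largest called change, and for CCN1 and CCN2 the 5 most correlated genes. The members, lists and tests were chosen with earlier results of these data known.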

Additional observations from a re-analysis of the deposited data

Results flagged for a closer look

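Among the 120 groups of 5 arrays formed by 10 genes, 3 lines and 4 treatments, 5 held an array far from the other 4, by a gap over 0.71 of the group's range; chance gives about 1 in 20 groups. SKBR3 rapamycin array 2 was high for CCN1 (8.82, with the next at 8.11) and for AMOTL2 (8.71, with the next at 8.14). SKBR3 vehicle array 3 read 4.33 for AXL, with the next at 0.69. HB4a rapamycin array 4 read 6.68 for LATS2, with the next at 6.23, and C5.2 array 2 with both drugs read 2.84 for F3, with the next at 4.43.
Of 57 differences in response between lines that were tested, 2 passed the threshold. The doxorubicin response of THBS1 differed by 1.32 between SKBR3 and HB4a, and the response of CCN2 to both drugs differed by -1.98. Both contain HB4a contrasts that helped to choose the genes.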

How the results depend on the processing

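No value changed sign among called results under any setting tried. Array centring changed 2 single-gene results, 1 of them LATS2 in SKBR3 against HB4a (0.41 ± 0.16), which then passed the threshold. The LATS2 call with rapamycin in HB4a ended without a filter, with only the arrays compared, and without a set of arrays that lay far out for the members (number 1 of HB4a and SKBR3, number 2 of C5.2 and HB4a rapamycin 4). In C5.2 the CCN2 calls for both drugs ended when all 60 arrays shared 1 fit (adjusted p = 0.0633 against vehicle and 0.0549 against doxorubicin), and AMOTL1 with rapamycin in SKBR3 lost its call without a filter (0.0566). Arrays carry no depth, and genes near the array median (ANKRD1 in HB4a, AXL and ANKRD1 in SKBR3, VGLL1 in C5.2) are limited by background.
Counts of members called moved as follows, and nothing about the members is read from them. The replicate block raised the share over all genes too, for example from 22.0% to 49.6% for both drugs against doxorubicin in SKBR3. Shares over all genes under the other settings are not given here. With the replicate block the count went from 2 to 4 for doxorubicin in HB4a, 0 to 2 for doxorubicin in C5.2, 2 to 6 for rapamycin in C5.2, 2 to 4 for both drugs in C5.2, 0 to 2 for doxorubicin in SKBR3 and 2 to 5 for rapamycin in SKBR3. For both drugs in HB4a it went from 5 to 6 against vehicle (F3 added, -0.46 ± 0.17 in the fit with the block). Against rapamycin it went from 2 to 3 (AXL added, 0.33 ± 0.08 in the fit with the block). Against doxorubicin, both drugs went from 3 to 5 in HB4a (AMOTL2 and LATS2 added), 2 to 4 in C5.2 and 1 to 4 in SKBR3, and against rapamycin from 0 to 5 in C5.2 and 0 to 2 in SKBR3. In the comparisons of both drugs in HB4a and of both drugs with vehicle in C5.2 the samples share only a number. For these no share over all genes with the block is given. With a random replicate block, response differences went from 0 to 1 (rapamycin) and 0 to 4 (both drugs) for C5.2, and from 1 to 3, 0 to 5 and 1 to 5 for doxorubicin, rapamycin and both drugs in SKBR3.
With the mean of all probe sets fewer members passed the filter, 5 in HB4a, 6 in C5.2 and 4 in SKBR3. Among members still tested under it, 2 calls ended, both of AXL (in HB4a with doxorubicin and in C5.2 against HB4a), and the other drops are members no longer tested. Counts were 0 for doxorubicin in HB4a, 1 for rapamycin in SKBR3, 1 for both drugs against rapamycin in HB4a, 4 for C5.2 against HB4a and 0 for the SKBR3 doxorubicin response. With all 60 arrays in 1 fit they were 1 for doxorubicin in HB4a, 1 and 3 for both drugs against doxorubicin in C5.2 and SKBR3, and 2 for the SKBR3 response to both drugs. Without that set of arrays they were 1 and 4 for doxorubicin and both drugs in C5.2, 2 for both drugs against doxorubicin in SKBR3 and 2 for the SKBR3 response to both drugs. Without a filter they were 1 for rapamycin in SKBR3 and 1 for both drugs against rapamycin in HB4a, and with no filter or one at 3 they were 1 and 2 for the SKBR3 responses to rapamycin and both drugs. With a filter at 7 they were 1 for both drugs against rapamycin in HB4a and 5 for C5.2 against HB4a, and with only the arrays compared 1 for the former. The causes were not tested.
Leaving out 1 array at a time, counts ran from 1 to 3 for doxorubicin and 3 to 5 for rapamycin in HB4a, 2 to 3 for rapamycin and for both drugs in C5.2, 1 to 2 for rapamycin in SKBR3, 1 to 3 for both drugs against rapamycin in HB4a, 1 to 3 for both drugs against doxorubicin in SKBR3, 7 to 8 for C5.2 against HB4a, and 0 to 1 for the SKBR3 responses to rapamycin and to both drugs.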
